A study of Mus musculus with 44 samples.

Results

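The genes described here are 8 genes of B cells and plasma cells: Cd79a, Cd79b, Ms4a1, Jchain, Mzb1, Ighm, Igha and Igkc. They were looked up among the 35249 genes of the raw count table by pairing its Ensembl identifiers with mouse symbols, and all 8 were found. The table holds 44 mouse liver libraries, made in a study of necroptosis, an inflammatory form of cell death carried out by RIPK3 and MLKL, in liver cancer. Mice were wild type (WT) or carried a knockout of Ripk3 (Ripk3-/-) or of Mlkl (Mlkl-/-), and from 2 months of age they ate 1 of 3 diets for 6 months. These were normal chow (control) and a pair of diets without choline, of low (CD-LFD) or high fat content (CD-HFD). On control, CD-LFD and CD-HFD there were 6, 6 and 6 WT, 6, 3 and 4 Ripk3-/- and 6, 4 and 3 Mlkl-/- libraries. The labels name no promoter, Cre driver, sex, litter or batch, and they do not say that each library is a different mouse, so p-values measure the spread between these samples.

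B cells carry an antibody on their surface, and Cd79a and Cd79b encode the pair of signalling chains that hold it there and pass its signal inward. Ms4a1 encodes CD20, a surface protein of mature B cells that is lost when they become plasma cells. Antibodies are built from heavy chains, whose constant part sets the class (Ighm for IgM, Igha for IgA), and light chains, of which kappa (Igkc) is the common one in mice. Plasma cells secrete antibody in bulk, Mzb1 helps to fold it in the endoplasmic reticulum, and the J chain (Jchain) joins secreted IgM and IgA into larger complexes. Both B cells and plasma cells transcribe Ighm and Igkc. IgA plasma cells are best known from the gut wall.

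Levels are counts per 1000000 of a library's counts, with library sizes scaled by TMM, a factor that makes libraries comparable (CPM). Apart from WT CD-LFD replicate 3 with 88204703 counts, the libraries held between 2476268 and 12471844 counts each. Counts of the members were low: over 44 libraries there were 11080 of Ighm, 6800 of Igkc, 1724 of Igha, 1123 of Jchain, 505 of Cd79b, 437 of Cd79a, 203 of Ms4a1 and 107 of Mzb1. The first 6 passed the filter on low counts, which kept 14862 genes, and Ms4a1 and Mzb1 did not. A group with no library over 3 counts is called at the floor, and a fold against it is a lower bound computed from 3 counts in its smallest library. Floors and intervals cover counting error only. Changes are log2 values from edgeR's quasi-likelihood test over all 44 libraries, with Benjamini-Hochberg adjustment over all genes tested and a threshold of 0.05. In bulk tissue, fewer cells of a type and less RNA per cell cannot be told apart.

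Some libraries stand apart. Ripk3-/- CD-LFD replicate 3 had Xist at 11.7 CPM, against at most 1.91 elsewhere. It also held the Y-linked gene Ddx3y at 50.1 CPM, and every library held Ddx3y at 33.7 CPM or more. The library labelled Ripk3-/- control replicate 5 held Ripk3 at 1.01 CPM, where the other Ripk3-/- libraries held at most 0.263 and WT control libraries 0.439 to 4.78. WT control replicates 5 and 6 had the most Ripk3 of their group, 2.83 and 4.78 CPM, against at most 1.3 in the other 4. These levels rest on 7 and 20 counts and lie within the range of WT CD-LFD (1.1 to 4.91 CPM). By chi-square per degree of freedom of their counts, where more is less alike, replicates 5 and 6 stood 18.3 apart. Against replicates 1 to 4, replicate 5 stood at 53.5 to 60.4 and replicate 6 at 102 to 110. The one labelled Mlkl-/- CD-HFD replicate 1 held Mlkl at 14.4 CPM, between the other libraries of its group (3.55 and 6.02) and WT CD-HFD (17.2 to 22.6). These libraries, apart from the one with Xist, are the 4 libraries left out together below. Hepatocyte genes moved with the diets: of 6, on CD-HFD 6 fell in WT, 6 in Ripk3-/- and 4 in Mlkl-/- livers (all genes 24.1%, 21.7% and 20.3%). On CD-LFD 4, 2 and 2 hepatocyte genes fell (all genes 14.0%, 10.1% and 18.3%), with 1 higher in Mlkl-/- livers (all genes 19.7%). The median (range) of their summed CPM on control, CD-LFD and CD-HFD was 122433 (86641 to 152871), 85258 (60219 to 104217) and 59860 (53506 to 88589) in WT livers. In Ripk3-/- livers it was 121659 (101412 to 146572), 88788 (72629 to 126732) and 74280 (59798 to 84417), and in Mlkl-/- livers 112287 (99275 to 115309), 122376 (117705 to 127061) and 72141 (63369 to 85903). On CD-HFD hepatocyte genes were thus lower in the groups in which members rose, and their part in those rises was not tested.

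The B cell receptor genes Cd79a and Cd79b rose on both choline-deficient diets in each knockout, except that the Cd79a call on Ripk3-/- CD-LFD was lost without 1 library, replicate 3. In WT livers Cd79b rose on CD-HFD with an adjusted p of 0.0437, a call lost in 7 of 12 fits that left out 1 library and under 4 of 9 other settings, and Cd79a did not pass the test. On the control diet both were lower in Mlkl-/- than in WT livers. On the choline-deficient diets neither gene differed from WT past the threshold in either knockout. The knockouts were not compared with each other. When only the libraries of the groups compared were fitted, both genes failed the count filter, and so had no test, on Ripk3-/- CD-LFD, on both diets in Mlkl-/- livers and between Mlkl-/- and WT controls. The calls on Ripk3-/- CD-HFD were made in that fit too, with adjusted p values of 0.00157 for Cd79a and 0.000114 for Cd79b.

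Promoters are shown for Cd79a, which rose in the knockouts, and Jchain, which passed the test with all 44 libraries in no comparison, the 2 of 8 members found in the RefSeq promoter table of build GRCm38.p6. Each runs from 250 bases before to 50 after the transcription start, 5′ to 3′ on the strand of the gene, and capitals mark motif matches. The Cd79a promoter lies at chr7:24897247-24897546 on the + strand and that of Jchain at chr5:88527848-88528147 on the - strand.
Cd79a: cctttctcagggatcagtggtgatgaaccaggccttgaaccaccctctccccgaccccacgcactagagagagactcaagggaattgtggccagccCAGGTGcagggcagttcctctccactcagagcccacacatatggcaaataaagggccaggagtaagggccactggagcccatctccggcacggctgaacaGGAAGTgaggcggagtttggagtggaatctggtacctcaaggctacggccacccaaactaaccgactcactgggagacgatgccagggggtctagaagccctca
Jchain: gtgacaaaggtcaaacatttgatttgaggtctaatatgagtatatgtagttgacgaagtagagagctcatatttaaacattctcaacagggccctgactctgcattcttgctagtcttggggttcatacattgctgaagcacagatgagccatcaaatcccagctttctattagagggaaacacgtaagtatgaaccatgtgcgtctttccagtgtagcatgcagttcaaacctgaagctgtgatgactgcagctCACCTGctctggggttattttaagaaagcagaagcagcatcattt
Searched on both strands, the E-box CAGGTG had 1 match in each, in Jchain on the opposite strand, and occurs in 20.2% of 32851 promoters of this length. The ETS core GGAAGT had 1 match in Cd79a (23.8% of promoters). The octamer ATGCAAAT was in neither (1.74% of promoters). A match is a string of letters, not a binding site.

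The lowest, median and highest Cd79a levels in WT control livers were 0.244, 1.23 and 2.93 CPM. On WT CD-LFD the same values were 0.609, 1.51 and 2.67 CPM, and on WT CD-HFD 1.08, 1.62 and 2.84 CPM. The 3 WT groups overlapped. In Ripk3-/- controls the values were 0, 0.477 and 1.05 CPM. The Ripk3-/- CD-LFD libraries held 0.833, 0.843 and 2.8 CPM, and the CD-HFD libraries 2.0, 1.75, 2.1 and 2.13 CPM. All 4 Ripk3-/- CD-HFD values lay above all 6 controls, while the lower CD-LFD values overlapped them and the highest came from replicate 3, the library with Xist. In the 6 Mlkl-/- controls there were 5 Cd79a counts in all, at most 1 in any library, or 0, 0.142 and 0.215 CPM. The Mlkl-/- CD-LFD libraries held 0.594, 1.04, 1.12 and 0.894 CPM, and the CD-HFD libraries 1.39, 2.35 and 0.666 CPM. No Mlkl-/- library on either choline-deficient diet overlapped the Mlkl-/- controls.

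The log2 change of Cd79a on CD-HFD was 0.31 (SE 0.414, adjusted p 0.566) in WT, 2.10 (SE 0.494, adjusted p 0.000548) in Ripk3-/- and 3.36 (SE 0.652, adjusted p 4.93e-05) in Mlkl-/- livers. With CD-LFD it was 0.05 (SE 0.433, adjusted p 0.946), 1.83 (SE 0.541, adjusted p 0.012) and 2.63 (SE 0.658, adjusted p 0.00188) in the same order. The Mlkl-/- controls being at the floor, the size of these fitted values depends on the prior count. By the floor, Cd79a was at least 2.25-fold higher on CD-HFD and at least 1.4-fold higher on CD-LFD in Mlkl-/- livers. The Ripk3-/- CD-LFD call rests on replicate 3, without which the change was 0.86 (adjusted p 0.48). Without Ripk3-/- control replicate 5 the Ripk3-/- change on CD-HFD was 1.79 (adjusted p 0.00226), and without Mlkl-/- CD-HFD replicate 1 the Mlkl-/- change was 3.39 (adjusted p 0.000177).

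**Figure D1:**
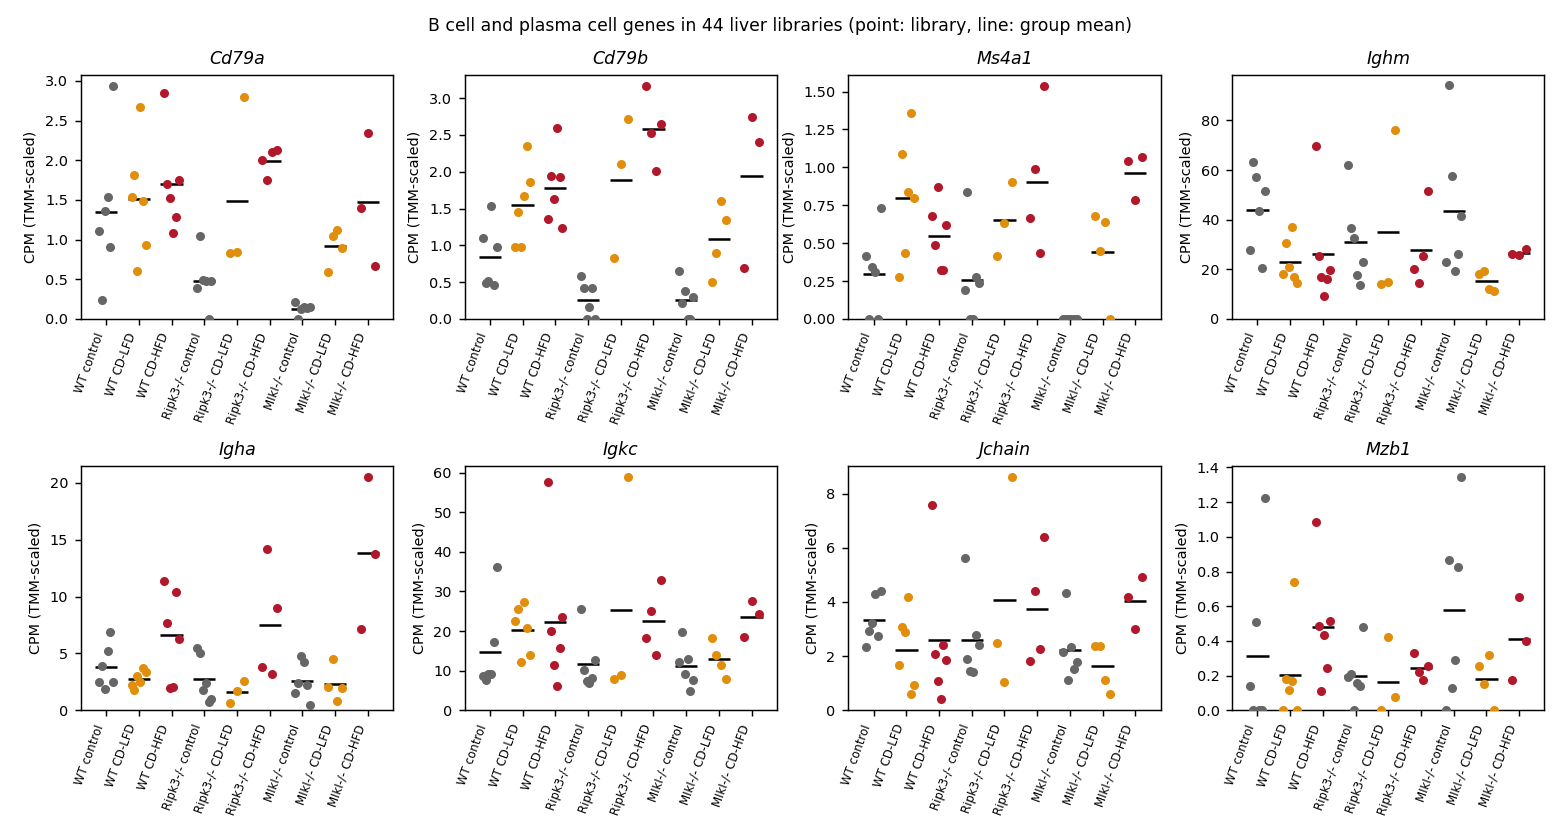
Each panel plots the TMM-scaled CPM of 1 gene in every library (points) with the group mean (line), for the 9 groups on the horizontal axis, grey for control, orange for CD-LFD and red for CD-HFD. Ms4a1 is at 0 in all 6 Mlkl-/- controls, where Cd79a reaches at most 0.215 CPM, and Igha has its highest group mean on Mlkl-/- CD-HFD (13.8 CPM).

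Cd79b had its lowest, median and highest levels at 0.456, 0.744 and 1.54 CPM in WT control, 0.976, 1.56 and 2.35 CPM on WT CD-LFD and 1.24, 1.78 and 2.6 CPM on WT CD-HFD. The WT groups overlapped. In Ripk3-/- controls the values were 0, 0.288 and 0.583 CPM, from 9 counts in 6 libraries. The Ripk3-/- CD-LFD libraries held 0.833, 2.11 and 2.72 CPM, and the CD-HFD libraries 3.16, 2.52, 2.01 and 2.64 CPM. All Ripk3-/- libraries on the choline-deficient diets lay above all 6 Ripk3-/- controls. The Mlkl-/- controls, with 9 counts, held 0, 0.258 and 0.646 CPM. On CD-LFD the Mlkl-/- libraries held 0.509, 0.894, 1.6 and 1.34 CPM, and on CD-HFD 0.696, 2.74 and 2.4 CPM. The lowest CD-LFD value overlapped the controls, and no CD-HFD value did.

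On CD-HFD the log2 change of Cd79b was 1.05 (SE 0.436, adjusted p 0.0437) in WT, 3.20 (SE 0.52, adjusted p 2.72e-06) in Ripk3-/- and 2.98 (SE 0.568, adjusted p 3.75e-05) in Mlkl-/- livers. For CD-LFD the values were 0.80 (SE 0.446, adjusted p 0.177), 2.83 (SE 0.57, adjusted p 0.000334) and 2.06 (SE 0.581, adjusted p 0.00538). Both knockout control groups were at the floor. Against it Cd79b was at least 3.58-fold (CD-HFD) and at least 2.61-fold (CD-LFD) higher in Ripk3-/-, and at least 2.99-fold and at least 1.67-fold higher in Mlkl-/- livers. Without Ripk3-/- CD-LFD replicate 3 the CD-LFD change of Cd79b was 2.39 (adjusted p 0.0251). The WT call was lost in 7 of 12 fits that left out 1 library, namely WT control 2, 3 or 5 or WT CD-HFD 2, 3, 4 or 5 (highest adjusted p 0.106), and without the 4 doubtful libraries (adjusted p 0.0669). WT control libraries also spread in the log2 ratio of the clock genes Arntl and Dbp, from -2.97 to 7.01 around the mean of all libraries, against -1.73 to 2.29 on WT CD-HFD. With that ratio as a covariate the WT change of Cd79b was 0.82 (adjusted p 0.213).

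Ms4a1, the CD20 gene, did not pass the filter. It had 0 to 3 counts per library in WT controls and 0 in all 6 Mlkl-/- controls, where 3 counts in the smallest library would be 0.652 CPM. In WT livers the lowest, median and highest levels were 0, 0.324 and 0.733 CPM on control, 0.279, 0.817 and 1.36 CPM on CD-LFD and 0.322, 0.553 and 0.873 CPM on CD-HFD, which overlapped. Ripk3-/- controls held 0, 0.217 and 0.838 CPM. The Ripk3-/- libraries held 0.417, 0.632 and 0.907 CPM on CD-LFD and 0.666, 0.987, 0.437 and 1.54 CPM on CD-HFD, overlapping the controls. Mlkl-/- libraries held 0.678, 0.447, 0.642 and 0 CPM on CD-LFD and 1.04, 0.783 and 1.07 CPM on CD-HFD. All 3 Mlkl-/- CD-HFD libraries lay above the controls, at least 1.48-fold against the floor, and 1 CD-LFD library was at 0. With no count filter the adjusted p of Ms4a1 against control was 0.038 on Ripk3-/- CD-HFD, 2.70e-05 on Mlkl-/- CD-HFD and 0.00166 on Mlkl-/- CD-LFD, each higher. It was 0.277 on Ripk3-/- CD-LFD, 0.261 on WT CD-LFD and 0.498 on WT CD-HFD. In the same fit Ms4a1 was lower in Mlkl-/- than in WT controls (adjusted p 0.0111), and its CD-HFD change was larger in Mlkl-/- than in WT livers (adjusted p 0.0368), while that difference on CD-LFD did not pass (adjusted p 0.149). Both of these control groups were at the floor, so the calls rest on counts of 0 against counts of 0 to 3, and their size cannot be read.

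Each knockout was then compared with WT within each diet. On the control diet Mlkl-/- livers had less Cd79a, with a log2 difference from WT of -3.24 (SE 0.613, adjusted p 0.000135), and less Cd79b, with -1.78 (SE 0.59, adjusted p 0.0218). With the Mlkl-/- group at the floor, these are at least 2.07-fold and at least 1.3-fold lower. So 2 of 6 tested members were lower, where 14.1% of all genes were. The Cd79b call was lost in 4 of 12 fits that left out 1 library, WT control 1 or 4 or Mlkl-/- control 4 or 5 (highest adjusted p 0.0562), and with no count filter (adjusted p 0.0598). For Ripk3-/- controls the log2 differences from WT were -1.55 (SE 0.513, adjusted p 0.0726) for Cd79a and -1.63 (SE 0.593, adjusted p 0.105) for Cd79b. By edgeR 0 of 6 members were called there, where 2.23% of all genes were lower, with 2 members at an unadjusted p under 0.05 and 0 called by DESeq2.

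On the choline-deficient diets edgeR called 0 of 6 members between either knockout and WT. In either direction 1.10% of all genes were called for Ripk3-/- against WT on CD-LFD and 0.377% on CD-HFD, and 2.56% for Mlkl-/- against WT on CD-LFD and 0% on CD-HFD. At an unadjusted p under 0.05 there were 0, 0, 0 and 1 members, the last being Igha with a log2 difference of 1.06 (SE 0.502, adjusted p 0.587), and DESeq2 called 0 in all 4. Over all genes in the last comparison 1246 had an unadjusted p under 0.05 and DESeq2 called 0.

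The change with diet was tested against that of WT. For Cd79a it was larger in Mlkl-/- livers by 2.58 (SE 0.791, adjusted p 0.0342) with CD-LFD and by 3.05 (SE 0.788, adjusted p 0.0211) with CD-HFD on the log2 scale, fitted values again. That is 1 of 6 members on each diet, where 4.37% and 1.58% of all genes were called in that direction. The CD-HFD call was lost without Mlkl-/- CD-HFD replicate 2 (2.43, adjusted p 0.132), and the CD-LFD call in 7 of 22 fits that left out 1 library, up to an adjusted p of 0.0676. It was also lost with no count filter (adjusted p 0.0867), without the 4 doubtful libraries (adjusted p 0.0574) and with only the groups compared (adjusted p 0.051). The 7 libraries were WT control 6, WT CD-LFD 3, Mlkl-/- control 2, 3 and 5 and Mlkl-/- CD-LFD 2 and 3. For Cd79b the differences were 1.26 (adjusted p 0.303) and 1.93 (adjusted p 0.13) in Mlkl-/-, and 2.03 (adjusted p 0.439) and 2.15 (adjusted p 0.169) in Ripk3-/- livers on CD-LFD and CD-HFD. In the Ripk3-/- tests edgeR called 0 of 6 members, where 0.00673% and 0.135% of all genes were called higher, 2 members had an unadjusted p under 0.05 on each diet, and DESeq2 called 0.

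The members called are set beside the share of all genes called in the same direction. On CD-HFD 1 of 6 was higher in WT (all genes 23.5%), 3 in Ripk3-/- (24.6%) and 3 in Mlkl-/- (24.9%). With CD-LFD 0 of 6 were higher in WT (13.7%), 2 in Ripk3-/- (14.0%) and 2 in Mlkl-/- (19.7%), and Ighm was lower in Mlkl-/- (18.3% of all genes lower). On WT CD-LFD 1 member, Ighm, had an unadjusted p under 0.05 by edgeR and DESeq2 called 0. Between WT CD-HFD and WT CD-LFD 1 of 6, Igha, was higher (13.7%). The median log2 change of the 6 members on CD-HFD was 0.46 in WT, 1.23 in Ripk3-/- and 1.74 in Mlkl-/- livers, the last 1.14 with genes at the floor set to their bounds. The medians over all genes were -0.07, -0.05 and -0.04, and with library size in place of TMM 0.43, 0.49 and 0.49. The CD-HFD comparison gave 3496 higher and 3586 lower genes (6813 and 1020 with library size only) in WT, 3657 higher and 3227 lower genes (6870 and 737 with library size only) in Ripk3-/- and 3699 higher and 3019 lower genes (6364 and 727 with library size only) in Mlkl-/- livers. The comparisons of a genotype with CD-LFD and CD-HFD share their control libraries.

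**Figure D2:**
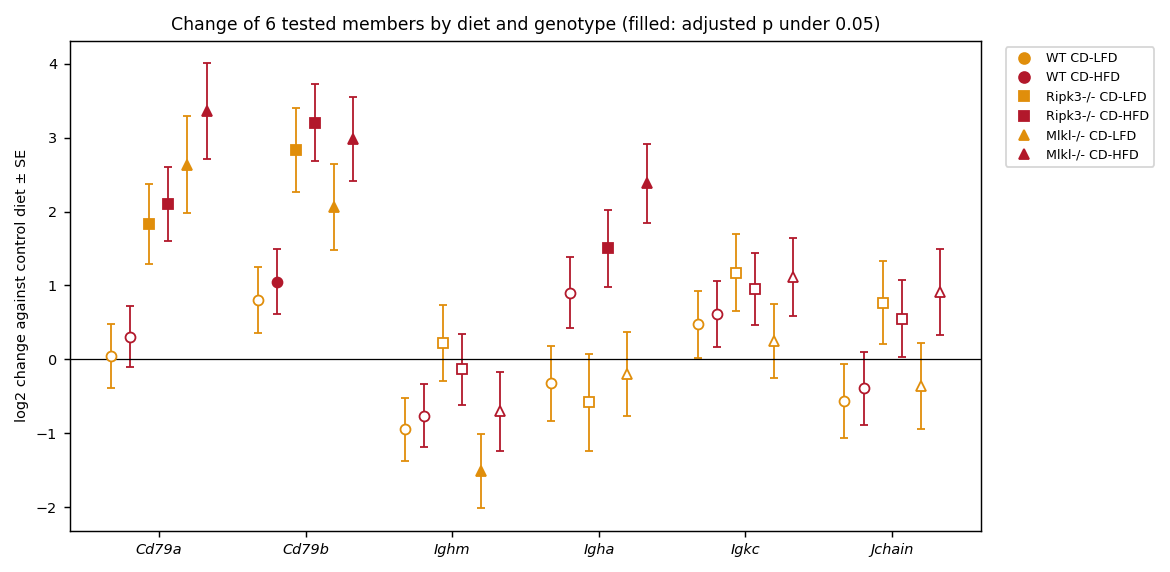
The vertical axis gives the log2 change against the control diet of the same genotype with its SE, for the 6 tested members on the horizontal axis, with marker shape for the genotype, filled where the adjusted p is under 0.05. Cd79a and Cd79b are filled in all 4 knockout comparisons, from 1.83 to 3.36, and Igkc and Jchain have no filled marker.

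The rest of the B lineage was read from 24 genes other than the members, of which 18 passed the filter. On CD-HFD 9 of 18 rose and 1 fell in WT, where 23.5% of all genes rose and 24.1% fell. In Ripk3-/- livers 15 rose and 0 fell (all genes 24.6% and 21.7%), and in Mlkl-/- livers 16 rose and 1 fell (all genes 24.9% and 20.3%). The medians of the 18 log2 changes were 1.34, 1.98 and 2.93. With CD-LFD 7, 8 and 12 rose in WT, Ripk3-/- and Mlkl-/- livers (all genes 13.7%, 14.0% and 19.7%), and 1 fell in Mlkl-/- livers (all genes 18.3%). In WT on CD-HFD Blnk, an adaptor below the B cell receptor, rose by 3.61 (SE 0.267, adjusted p 3.08e-14), and Cd180, a relative of the Toll-like receptors, by 3.41 (SE 0.418, adjusted p 8.48e-09). Cd72, a co-receptor of B cells, rose by 3.33 (SE 0.307, adjusted p 8.95e-12), and Fcrla, an Fc receptor relative of B cells with its controls at the floor, by a fitted 2.71 (SE 0.79, adjusted p 0.00438). Bach2 was the gene that fell, with -1.46 (adjusted p 0.00026) in WT and -1.79 (adjusted p 0.000699) in Mlkl-/- livers. Among genes that did not pass in WT were Cr2, Bank1, Fcer2a, Ebf1, Ighd and H2-Ob, with -0.0144 to 1.06 (adjusted p 0.0687 or more). Macrophages and dendritic cells also express Blnk, Cd180 and Cd72. The summed level of 8 macrophage genes was 158 to 218 CPM in WT control and 425 to 836 CPM on WT CD-HFD. That of 6 conventional dendritic cell genes was 9.22 to 29.3 CPM and 52.8 to 95.2 CPM, and that of 6 plasmacytoid dendritic cell genes 1.71 to 5.13 CPM and 16.6 to 21.8 CPM. The same 3 sums were higher in every CD-HFD library than in every control library of each genotype, with 1 plasmacytoid gene at 0 in each control group. The part of these cells in the B lineage rises was not tested.

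Pax5, a B lineage transcription factor, was picked for mention after its values were seen. In WT on CD-HFD its log2 change was 0.53 (adjusted p 0.497). It rose by 1.99 (adjusted p 0.024) in Ripk3-/- and by 2.57 (adjusted p 0.0106) in Mlkl-/- livers. Blnk rose by 4.03 (SE 0.286, adjusted p 1.10e-14) in Ripk3-/- and 5.65 (SE 0.334, adjusted p 4.01e-17) in Mlkl-/- livers. Blk, Fcmr, Pou2af1, Tnfrsf13c, Cxcr5 and Vpreb3 did not pass the filter.

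On the control diet 6 of the 18 were lower in Mlkl-/- than in WT livers and 0 were higher (all genes 14.1% and 13.0%), with a median of -1.27. WT control replicates 6 and 5, which stand apart, had the highest summed levels of the list in their group, 67.7 and 57.1 CPM, against a group median of 38.5 CPM. Without replicate 6 the count of lower genes was 2, and without the 4 doubtful libraries, a fit added after the data were seen, it was 1 of 19, with a median of -0.81. That gene was Blnk, with a log2 difference of -2.11 (SE 0.397, adjusted p 0.000122) over all libraries and -2.24 (adjusted p 0.000359) without the 4. The share of all genes called lower in those fits without libraries is not given here, so the smaller counts cannot be set beside it. For Ripk3-/- controls 0 of 18 passed edgeR's test, with 2 at an unadjusted p under 0.05 and 0 called by DESeq2, with a median of -0.49. The test of the difference in diet change called Blnk in Mlkl-/- livers, by 2.54 (SE 0.461, adjusted p 0.000509) for CD-LFD and by 2.04 (SE 0.469, adjusted p 0.00997) for CD-HFD.

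**Figure D3:**
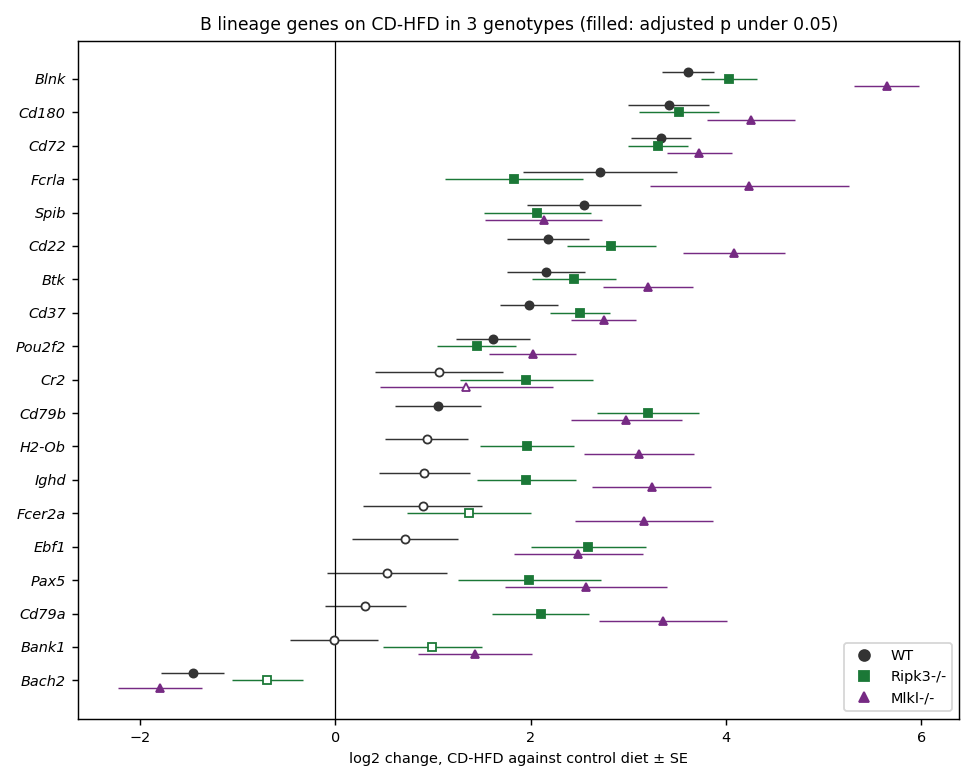
For 17 genes of the B lineage list with Cd79a and Cd79b, the log2 change on CD-HFD against control is plotted with its SE in WT (circles), Ripk3-/- (squares) and Mlkl-/- (triangles), filled where the adjusted p is under 0.05. Blnk has the highest value of the 3 genotypes in Mlkl-/- (5.65), and Pax5 and Cd79a are filled in both knockouts and open in WT.

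Among the antibody constant genes Igha rose on CD-HFD in both knockouts and was higher on WT CD-HFD than on WT CD-LFD, Ighm fell on CD-LFD in Mlkl-/- livers, and Igkc passed edgeR's test in 0 of the 17 comparisons (2 at an unadjusted p under 0.05, 0 by DESeq2).

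Igha, the IgA heavy chain, had its lowest, median and highest levels at 1.87, 3.2 and 6.85 CPM in WT control, 1.81, 2.77 and 3.71 CPM on WT CD-LFD and 1.96, 6.98 and 11.4 CPM on WT CD-HFD. WT CD-HFD replicates 3 and 4 were at 1.96 and 2.06 CPM and replicates 1 and 5 at 11.4 and 10.4 CPM, so that this group spread from the control level upward. Ripk3-/- controls held 0.698, 2.08 and 5.44 CPM. The Ripk3-/- CD-LFD libraries held 0.625, 1.69 and 2.57 CPM, and the CD-HFD libraries 3.83, 14.1, 3.15 and 8.96 CPM. The lower pair on CD-HFD overlapped the controls. Mlkl-/- controls held 0.447, 2.3 and 4.77 CPM, CD-LFD livers 2.04, 4.47, 0.802 and 1.94 CPM, and CD-HFD livers 7.14, 20.5 and 13.7 CPM. All 3 Mlkl-/- CD-HFD livers were above all other Mlkl-/- livers.

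On CD-HFD the log2 change of Igha was 0.90 (SE 0.483, adjusted p 0.121) in WT, 1.50 (SE 0.514, adjusted p 0.0154) in Ripk3-/- and 2.38 (SE 0.53, adjusted p 0.000297) in Mlkl-/- livers. WT CD-HFD exceeded WT CD-LFD by 1.23 (SE 0.454, adjusted p 0.0473). The Ripk3-/- call was lost without CD-HFD replicate 2 (1.01, adjusted p 0.138). The WT call was lost in 9 of 12 fits that left out 1 library, WT CD-LFD 1, 2, 3, 4 or 6 or WT CD-HFD 1, 2, 5 or 6, up to an adjusted p of 0.129. With the clock gene ratio as a covariate the difference was 0.85 (adjusted p 0.348), and the call was also lost with the replicate number as a block. That ratio was 1.76 to 4.12 on WT CD-LFD. On WT CD-HFD it was -1.73 to -0.273, apart from replicate 3 at 2.29, so ratio and diet can hardly be told apart here. With CD-LFD against control the changes of Igha were -0.32 (adjusted p 0.676), -0.58 (adjusted p 0.545) and -0.20 (adjusted p 0.804) in WT, Ripk3-/- and Mlkl-/- livers. The difference between the CD-HFD changes in Mlkl-/- and WT livers was 1.48 (SE 0.728, adjusted p 0.265), which did not pass. Of 6 gut epithelial genes 3 were tested, Vil1, Lgals4 and Fabp2. On CD-HFD 1 of these rose in WT, 1 in Ripk3-/- and 2 in Mlkl-/- livers (all genes 23.5%, 24.6% and 24.9%). On CD-LFD 1, 1 and 3 rose (all genes 13.7%, 14.0% and 19.7%), and none was lower on either diet. Vil1, a cytoskeletal gene of brush borders and bile ducts, rose on CD-HFD by 4.11 (SE 0.541, adjusted p 4.03e-08) in WT, 4.96 (SE 0.582, adjusted p 3.74e-09) in Ripk3-/- and 3.52 (SE 0.528, adjusted p 6.56e-07) in Mlkl-/- livers. The log2 changes of Lgals4, a galectin of gut epithelium, were 0.81 (adjusted p 0.184), 0.48 (adjusted p 0.481) and 1.59 (adjusted p 0.0235) in that order, and the log2 values of Fabp2, a fatty acid binding protein of the gut, were 0.34 (adjusted p 0.291), 0.23 (adjusted p 0.542) and 0.55 (adjusted p 0.154). Their summed level on control, CD-LFD and CD-HFD had medians of 83.2, 108 and 121 CPM in WT, 76.6, 197 and 134 CPM in Ripk3-/- and 54.8, 175 and 92.1 CPM in Mlkl-/- livers. The median was highest on CD-HFD in WT livers, where the 3 diets overlapped, and on CD-LFD in both knockouts. The part of such cells in the Igha values was not tested.

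Ighm, the IgM heavy chain, had its lowest, median and highest levels at 20.5, 47.6 and 63.3 CPM in WT control, 14.4, 19.5 and 37.2 CPM on WT CD-LFD and 9.41, 18.2 and 69.9 CPM on WT CD-HFD. Replicate 1 alone made the top of the WT CD-HFD range, and the other 5 were at 25.5 CPM or less. Ripk3-/- controls held 13.6, 27.7 and 62 CPM, CD-LFD livers 14.2, 14.8 and 76.1 CPM, and CD-HFD livers 20.1, 14.6, 25.4 and 51.5 CPM. The highest Ripk3-/- CD-LFD value was again that of replicate 3. Mlkl-/- controls held 19.3, 33.9 and 94.3 CPM, CD-LFD livers 18, 19.2, 12.2 and 11.3 CPM, and CD-HFD livers 26.3, 25.7 and 28.1 CPM. All 4 Mlkl-/- CD-LFD values lay below all 6 Mlkl-/- controls, the nearest by a small gap.

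The log2 change of Ighm in Mlkl-/- livers was -1.51 (SE 0.503, adjusted p 0.0166) under CD-LFD, where it fell, and -0.70 (SE 0.534, adjusted p 0.29) under CD-HFD. The first was lost without Mlkl-/- control replicate 2 or CD-LFD replicate 4, up to an adjusted p of 0.0668. WT livers gave -0.95 (SE 0.43, adjusted p 0.0953) under CD-LFD and a value of -0.76 (SE 0.427, adjusted p 0.141) under CD-HFD, and without WT CD-HFD replicate 1 the latter was -1.34 (adjusted p 0.0083). Ripk3-/- livers gave 0.22 (SE 0.513, adjusted p 0.784) under CD-LFD and a value of -0.13 (SE 0.475, adjusted p 0.84) under CD-HFD, and without Ripk3-/- CD-LFD replicate 3 the first was -1.09 (adjusted p 0.272). On the control diet the log2 difference of Ighm between Mlkl-/- and WT livers was -0.02 (SE 0.424, adjusted p 0.975). The Mlkl-/- controls held 107 to 457 Ighm counts each beside 0 or 1 Cd79a counts.

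Igkc, the kappa light chain, had its lowest, median and highest levels at 7.57, 9.21 and 36.2 CPM in WT control, 12.3, 21.6 and 27.2 CPM on WT CD-LFD and 6.17, 17.8 and 57.6 CPM on WT CD-HFD. The top values were those of WT control replicate 6 and WT CD-HFD replicate 1. Ripk3-/- controls held 6.77, 9.08 and 25.5 CPM, CD-LFD livers 7.92, 8.85 and 59 CPM, and CD-HFD livers 18.1, 25.1, 14.1 and 32.9 CPM. Mlkl-/- controls held 4.97, 10.6 and 19.8 CPM, CD-LFD livers 18.3, 13.9, 11.4 and 7.89 CPM, and CD-HFD livers 18.5, 27.7 and 24.4 CPM. The Mlkl-/- CD-HFD values overlapped the controls only through Mlkl-/- control replicate 2. The log2 changes of Igkc on CD-HFD were 0.62 (SE 0.449, adjusted p 0.263) in WT, 0.96 (SE 0.487, adjusted p 0.104) in Ripk3-/- and 1.11 (SE 0.526, adjusted p 0.0812) in Mlkl-/- livers, none past the threshold. Fitted with the libraries of the groups compared alone, Igkc passed on CD-HFD in Ripk3-/- (1.02, adjusted p 0.0274) and Mlkl-/- livers (1.21, adjusted p 0.00877). With library size in place of TMM it passed on CD-HFD in WT (1.11, adjusted p 0.0456), Ripk3-/- (1.49, adjusted p 0.0135) and Mlkl-/- livers (1.65, adjusted p 0.0115). In WT the change was 1.38 (adjusted p 0.0205) without the 4 doubtful libraries and 0.08 (adjusted p 0.896) without WT CD-HFD replicate 1. On Ripk3-/- CD-LFD it was 1.17 (adjusted p 0.093), and without replicate 3 -0.47 (adjusted p 0.676).

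Other constant genes were read from a list of 9, of which 6 passed the filter. In WT on CD-HFD 0 of 6 passed edgeR's test, where 23.5% of all genes rose and 24.1% fell, with 0 at an unadjusted p under 0.05 and 0 called by DESeq2. Ighd, the IgD heavy chain of naive B cells, had a log2 change of 0.91 (adjusted p 0.104), the IgG heavy chains Ighg1, Ighg2b and Ighg2c had -0.36 (adjusted p 0.693), 1.29 (adjusted p 0.108) and 1.24 (adjusted p 0.218), and the lambda light chains Iglc1 and Iglc2 had 1.15 (adjusted p 0.21) and 0.57 (adjusted p 0.513). Without the 4 doubtful libraries 3 of 8 rose, and the share of all genes in fits without those libraries is not given here. In Mlkl-/- livers on CD-HFD 5 of 6 rose, where 24.9% of all genes did (DESeq2 called 3, and without Mlkl-/- CD-HFD replicate 2 edgeR called 1): Ighd by at least 3.68-fold against the floor, Ighg1 by 1.89 (adjusted p 0.0373), Ighg2b by 1.47 (adjusted p 0.0372), Ighg2c by 1.98 (adjusted p 0.0464) and Iglc1 by 2.17 (adjusted p 0.00851). Among Ripk3-/- livers on CD-HFD Ighd rose by 1.96 (adjusted p 0.0015) and the other 5 did not pass (all genes 24.6%), and without the 4 doubtful libraries 3 of 8 rose. Ighd was lower in Mlkl-/- controls, where it was at the floor, than in WT controls, by a fitted -2.01 (adjusted p 0.016), and without the 4 doubtful libraries by -0.99 (adjusted p 0.354). It stands in the B lineage list too.

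The class make-up was read as the share of Igha in all heavy-chain constant counts of a library. In WT livers this IgA share was 8.92% ± 7.28 (SD, n = 6) on control, 10.05% ± 4.56 (SD, n = 6) on CD-LFD and 18.2% ± 9.0 (SD, n = 6) on CD-HFD. Ripk3-/- livers had 6.71% ± 3.49 (SD, n = 6), 4.83% ± 2.96 (SD, n = 3) and 17% ± 9.84 (SD, n = 4), and Mlkl-/- livers 6.55% ± 5.41 (SD, n = 6), 10.6% ± 5.31 (SD, n = 4) and 24.2% ± 6.78 (SD, n = 3). In each genotype the CD-HFD group had the highest mean. The highest share was that of WT CD-HFD replicate 5, 34.6% (129 of 373 counts, exact Clopper-Pearson 95% interval 29.8 to 39.7%). Ripk3-/- CD-HFD replicate 2 had 31.5% (129 of 409 counts, exact Clopper-Pearson 95% interval 27.1 to 36.3%). The 3 Mlkl-/- CD-HFD libraries, at 17, 30.5 and 25.1%, were above all 6 Mlkl-/- controls, the highest of which was 16.3%.

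Two-sided exact permutation tests over libraries gave p = 0.0714 for WT CD-HFD against control, 0.0476 against WT CD-LFD, 0.0286 for Ripk3-/- and 0.0238 for Mlkl-/- CD-HFD against control. The last is the smallest p that 3 against 6 libraries allow by exact permutation. After Benjamini-Hochberg adjustment over the 7 comparisons these permutation p-values were 0.125, 0.111, 0.10 and 0.10, so none passed. The differences on CD-HFD against control were 9.26, 10.3 and 17.6 percentage points in WT, Ripk3-/- and Mlkl-/- livers. For CD-LFD they were 1.13, -1.88 and 4.05 points, with exact permutation p of 0.764, 0.429 and 0.267.

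**Figure D4:**
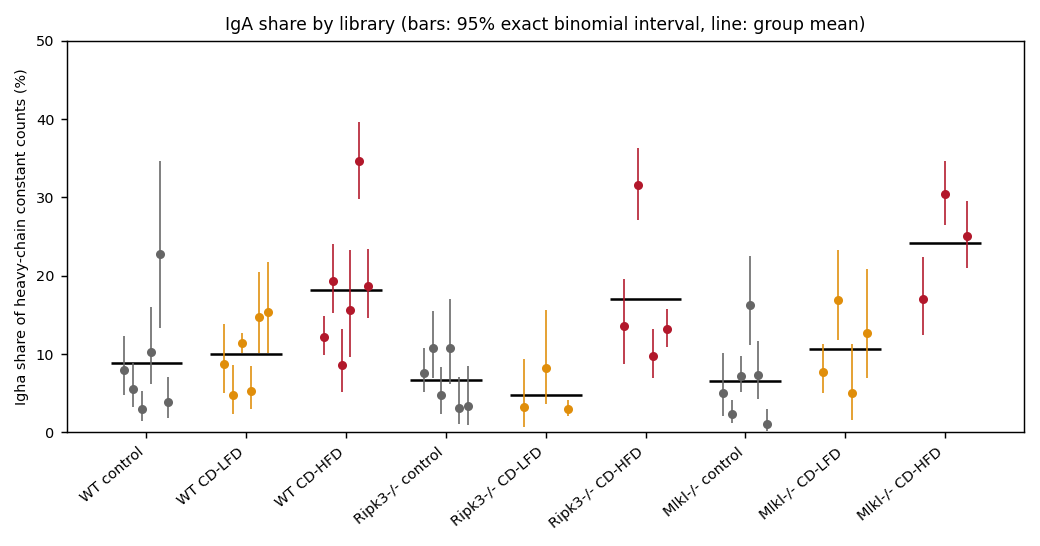
Each point is the Igha share of the heavy-chain constant counts of 1 library in percent, with its 95% exact binomial interval, by group on the horizontal axis, and the black line is the group mean. The means on CD-HFD are 18.2, 17 and 24.2% in WT, Ripk3-/- and Mlkl-/-, against 8.92, 6.71 and 6.55% on control.

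The plasma cell gene Jchain passed edgeR's test in 0 of the 17 comparisons (0 at an unadjusted p under 0.05, 0 by DESeq2), and Mzb1 did not pass the count filter. On Mlkl-/- CD-HFD Jchain did pass when the libraries of the groups compared were fitted alone (1.01, adjusted p 0.0461) and with library size in place of TMM (1.43, adjusted p 0.0391). Jchain, the joining chain, had its lowest, median and highest levels at 2.35, 3.08 and 4.4 CPM in WT control, 0.618, 2.27 and 4.18 CPM on WT CD-LFD and 0.433, 1.96 and 7.59 CPM on WT CD-HFD. The top WT CD-HFD value was that of replicate 1, which also topped Ighm and Igkc. Ripk3-/- controls held 1.42, 2.15 and 5.64 CPM, CD-LFD livers 2.5, 1.05 and 8.61 CPM, and CD-HFD livers 1.83, 4.39, 2.27 and 6.4 CPM. Mlkl-/- controls held 1.13, 1.97 and 4.34 CPM, CD-LFD livers 2.37, 2.38, 1.12 and 0.596 CPM, and CD-HFD livers 4.18, 3.0 and 4.93 CPM. Each of these groups overlapped its controls. The log2 changes of Jchain on CD-HFD were -0.39 (SE 0.494, adjusted p 0.543) in WT, 0.55 (SE 0.522, adjusted p 0.403) in Ripk3-/- and 0.91 (SE 0.578, adjusted p 0.202) in Mlkl-/- livers. For CD-LFD they were -0.56 (adjusted p 0.421), 0.77 (adjusted p 0.324) and -0.36 (adjusted p 0.649), and without Ripk3-/- CD-LFD replicate 3 the Ripk3-/- value was -0.53 (adjusted p 0.697).

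Mzb1, the antibody-folding cofactor, had 107 counts in 44 libraries, with 9 libraries at 0. Its group means ran from 0.166 ± 0.225 CPM (SD, n = 3) on Ripk3-/- CD-LFD to 0.576 ± 0.52 CPM (SD, n = 6) in Mlkl-/- controls. With no count filter its adjusted p was 0.266 or more in all 17 comparisons.

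Other plasma cell genes were read from a list of 16, of which 14 passed the filter. In WT on CD-HFD 4 rose and 3 fell, where 23.5% and 24.1% of all genes did, with a median of -0.19. Slamf7, a receptor of plasma cells that NK cells and macrophages also carry, was at least 7.08-fold higher. Bhlha15, a transcription factor of secretory cells, rose by 2.66 (SE 0.719, adjusted p 0.00223), Prdm1, which encodes the plasma cell regulator Blimp-1, by 1.59 (SE 0.498, adjusted p 0.00797), and Fkbp11, a folding enzyme of the secretory route, by 0.91 (SE 0.281, adjusted p 0.00706). These are the 4 that rose, named for the largest changes, and the 3 that fell in WT changed less. Of the 14, 3 rose and 6 fell in Ripk3-/- livers (all genes 24.6% and 21.7%), and 2 rose and 7 fell in Mlkl-/- livers (all genes 24.9% and 20.3%). Without the 4 doubtful libraries 4 of 15 rose and 7 fell in Mlkl-/- livers, with no share of all genes given for that fit. Slamf7 was at least 13.8-fold and at least 19-fold higher in these, and Creld2, an endoplasmic reticulum stress gene, fell in Mlkl-/- livers from 357 ± 118 CPM (SD, n = 6) to 57.4 ± 15.7 CPM (SD, n = 3). On the control diet 7 of 14 were higher and 1 lower in Mlkl-/- than WT livers (all genes 13.0% and 14.1%), among them Creld2 with 2.20 (SE 0.401, adjusted p 8.38e-05). Hepatocytes also express secretory genes of this list, and its summed level of 631 to 2872 CPM stood above that of the B lineage list (15 to 141 CPM).

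Signals that attract B cells or keep them alive were read from 19 genes, of which 12 passed the filter. In WT on CD-HFD 8 rose and 1 fell (all genes 23.5% and 24.1%), with a median of 2.75. Cxcr4, a chemokine receptor of plasma cells and other leukocytes, rose by 4.48 (SE 0.372, adjusted p 5.70e-13), Ltb, a lymphotoxin chain, by 3.35 (SE 0.406, adjusted p 6.54e-09) and Ccr7, a homing receptor of lymphocytes and dendritic cells, by 3.10 (SE 0.488, adjusted p 1.30e-06). Ccl19, a ligand of CCR7, was at least 1.15-fold higher. Of the 12, 9 rose and 2 fell in Ripk3-/- livers (all genes 24.6% and 21.7%) and 8 rose and 0 fell in Mlkl-/- livers (all genes 24.9% and 20.3%). With CD-LFD 7, 5 and 5 rose and 2, 2 and 0 fell in WT, Ripk3-/- and Mlkl-/- livers. Over all genes 13.7%, 14.0% and 19.7% rose and 14.0%, 10.1% and 18.3% fell with CD-LFD.

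For class switching and the IgA route 8 of 14 genes passed the filter. In WT on CD-HFD 5 rose and 3 fell (all genes 23.5% and 24.1%). Itgb7 and Itga4, the chains of a gut-homing integrin, rose by 2.37 (SE 0.33, adjusted p 1.26e-07) and 1.85 (SE 0.284, adjusted p 8.45e-07), and Ccr9, a gut-homing receptor, by 1.73 (SE 0.477, adjusted p 0.00273). Ccl25, the ligand of CCR9, changed by -1.44 (SE 0.216, adjusted p 5.48e-07). Among Mlkl-/- livers Itgb7 rose by 2.33 (SE 0.35, adjusted p 7.11e-07) and Ccr9 was at least 2.17-fold higher. For Ripk3-/- livers Itgb7 rose by 1.99 (SE 0.324, adjusted p 2.85e-06), and Bcl6, a germinal centre regulator that hepatocytes express too, changed by -1.85 (SE 0.548, adjusted p 0.00535). T cells also carry these integrin chains and CCR9.

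Genes of other immune cells moved with the diets too. Of 12 T cell genes 11, 11 and 11 rose on CD-HFD in WT, Ripk3-/- and Mlkl-/- livers, where 23.5%, 24.6% and 24.9% of all genes did. Their summed level was 2.93 to 9.59 CPM in WT control, 8.23 to 31 CPM on WT CD-LFD and 28.6 to 54.6 CPM on WT CD-HFD, and none of the 12 was at 0 in a whole group. In Ripk3-/- livers it was 3.35 to 8.55 CPM on control and 14.5 to 32.6 CPM on CD-LFD, and in Mlkl-/- livers 2.68 to 7.15 CPM and 11 to 24.1 CPM. Of 8 macrophage genes 6 rose and 2 fell in WT, 6 rose and 1 fell in Ripk3-/- and 6 rose and 1 fell in Mlkl-/- livers. Of 6 conventional dendritic cell genes 5 rose and 1 fell in WT, 4 rose and 0 fell in Ripk3-/- and 5 rose and 0 fell in Mlkl-/- livers, and of 4 tested plasmacytoid genes 4 rose and 0 fell in WT, 3 rose and 0 fell in Ripk3-/- and 4 rose and 0 fell in Mlkl-/- livers. In Ripk3-/- CD-LFD replicate 3 the members summed to 153 CPM against 27.3 and 30.4 CPM in the other libraries of its group, and its T cell genes to 32.6 CPM against 14.5 and 15 CPM. The part of these cells in the results for the members was not tested.

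Pearson correlations of log2 CPM over the 44 libraries are given as a description, since libraries share groups, diets and depth. Cd79a stood at 0.73 with Ms4a1 and 0.72 with Cd79b, and Jchain at 0.66 with Ighm and 0.64 with Igkc. After subtraction of group means the values were 0.39, 0.16, 0.69 and 0.76. Cd79a and Ighm stood at -0.02, and at 0.35 after subtraction. Outside the members and antibody segments, the 6 tested genes most like the mean of Cd79a, Cd79b and Ms4a1 were, with r over 44 libraries and r after subtraction of group means, Stoml1 (0.893 and 0.44), Siglecg (0.89 and 0.605), Tmem191c (0.884 and 0.714), Ptpdc1 (0.882 and 0.54), Mill2 (0.881 and 0.662) and Zfp362 (0.874 and 0.609). Siglecg encodes an inhibitory receptor of B cells. For the mean of Jchain, Mzb1 and Igkc they were Eva1c (0.551 and 0.47), Myo9a (0.548 and 0.581), Bank1 (0.534 and 0.518), Sh2d3c (0.533 and 0.557), Armcx1 (0.529 and 0.457) and Gimap8 (0.525 and 0.546).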

How the data were processed

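The deposited table holds raw counts of reads per Ensembl gene, which the authors made on GRCm39 (mm39). The submitters' processing notes also name FastQC, STAR, HTSeq, edgeR and limma, without versions or roles. The library kit marks strand, per the labels' protocols, and the strand setting of the counting is not given in the sources used here. Of 35249 identifiers 34373 were paired with symbols from RefSeq tables.

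Genes were kept by filterByExpr (minimum count 10; 14862 genes with 99.8% of counts), scaled by TMM and tested with edgeR's quasi-likelihood F test (version 4.0.16, R 4.3.3, 1 mean per group, 17 contrasts, Benjamini-Hochberg within each). The SE is the absolute log2 value over the root of F. IgA shares were taken in libraries with at least 20 heavy-chain counts. The members and lists were chosen with earlier results of these data known. From each pathway list up to 4 called genes with the largest change in WT on CD-HFD were named, and up to 2 per knockout comparison described. All constant genes that passed the filter were named, and for likeness the 6 genes of highest r. Named besides these were Pax5, Bach2 and further B lineage genes that did not pass in WT. Alternatives were RLE factors, library size only, no filter, a robust fit, a replicate block, a clock covariate, DESeq2 1.42.0, only the compared groups, and fits without certain libraries. The test was checked on simulated data. A gene of the B lineage list, counted with the rest, is not reported here.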

Additional observations from a re-analysis of the deposited data

Results flagged for a closer look

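Of 63 sets of values examined (8 members and the IgA share in the 7 groups of 4 or more libraries, so without Ripk3-/- CD-LFD and Mlkl-/- CD-HFD, which have 3), 10 had a library farther from the rest than Dixon's 95% limit for its gap allows, which chance gives in about 1 of 20 groups. In WT CD-HFD replicate 1 Jchain was at 7.59 CPM (others 0.433 to 2.42), Ighm at 69.9 CPM (others 9.41 to 25.5) and Igkc at 57.6 CPM (others 6.17 to 23.5). In Ripk3-/- control replicate 1 Jchain was at 5.64 CPM (others 1.42 to 2.79) and Igkc at 25.5 CPM (others 6.77 to 12.8). Jchain was at 4.34 CPM (others 1.13 to 2.33) in Mlkl-/- control replicate 2, and Igkc at 36.2 CPM (others 7.57 to 17.3) in WT control replicate 6. Ms4a1 was at 0.838 CPM (others 0 to 0.279) in Ripk3-/- control replicate 2, from 4 counts, and Mzb1 at 0.742 CPM (others 0 to 0.181) in WT CD-LFD replicate 5, from 6 counts. The IgA share of WT control replicate 5 was 22.7% (others 2.99 to 10.3%), from 66 heavy-chain counts, the fewest of any library.

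By the interaction test of edgeR with Benjamini-Hochberg adjustment, the change of Cd79a in Mlkl-/- livers differed from that in WT by 2.58 (adjusted p 0.0342) on CD-LFD and by 3.05 (adjusted p 0.0211) on CD-HFD on the log2 scale. The CD-LFD call was lost in 7 of 22 fits that left out 1 library and under 3 of 9 other settings, and the CD-HFD call without Mlkl-/- CD-HFD replicate 2 (adjusted p 0.132). Both are fitted against Mlkl-/- controls at the floor, so their size depends on the prior count.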

How the results depend on the processing

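Of the counts of called members under settings other than leaving out 1 library, 135 stayed within 1.5 times and 18 did not, and of values of single members 462 kept direction and side of the threshold, 13 newly passed, 10 no longer passed and 4 reversed. WT CD-HFD against control (1 called) had 0 with the replicate block, 0 with the clock covariate, 0 with no filter and 3 with library size only, and WT CD-HFD against CD-LFD (1 called) had 0 with the block (Igha 1.14, adjusted p 0.0639) and 0 with the clock. Library size only gave 5 for Mlkl-/- CD-HFD and 1 for Ripk3-/- against WT on control, and turned Jchain on WT CD-HFD to 0.12 and Ighm on Ripk3-/- CD-HFD to 0.40. The clock covariate turned Jchain and Ighm for WT CD-HFD against CD-LFD to -0.16 and -0.17. The Mlkl-/- interaction had 0 on CD-LFD and 2 on CD-HFD with no filter, and 0 and 2 without the 4 doubtful libraries, where WT CD-LFD had 1. Only the compared groups gave 1 for WT CD-LFD, 0 for Ripk3-/- CD-LFD, 1 for Mlkl-/- CD-LFD, 0 for Mlkl-/- against WT on control and 0 for the Mlkl-/- interaction on CD-LFD. Mlkl-/- CD-HFD had 3 there as in the fit of all groups, with Jchain (adjusted p 0.0461) and Igkc in place of Cd79a and Cd79b, which failed the count filter, as on CD-LFD in both knockouts and between Mlkl-/- and WT controls. The labels do not say what a shared replicate number means. Deviations of same-numbered samples correlated at -0.349 to 0.545 over 146 pairs (42 over 0.1), and no compared pair of groups had every pair over 0.1. For WT CD-LFD and WT CD-HFD against control 4 of 6 pairs each were over 0.1, ranging over 0.0369 to 0.545 and -0.154 to 0.441. Whether same-numbered WT samples share a batch was not tested. The block moved no other count of calls by over 1.5 times.

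Leaving out 1 library at a time, calls ranged over 0 to 2 (WT CD-HFD), 0 to 1 (WT CD-HFD against CD-LFD), 1 to 3 (Ripk3-/- CD-LFD), 0 to 1 (Ripk3-/- against WT on control), 1 to 2 (Mlkl-/- against WT on control), 0 to 1 and 1 to 2 (Mlkl-/- interaction on CD-LFD and CD-HFD, where without Mlkl-/- CD-HFD replicate 2 the 1 called was Ms4a1 and not Cd79a). Log2 changes that turned sign ranged over -0.19 to 0.41 for Cd79a on WT CD-LFD, -0.48 to 0.40, -0.39 to 0.37 and -0.39 to 0.34 for Jchain, Ighm and Igkc in WT CD-HFD against CD-LFD, -0.62 to 0.19 for Ighm on Ripk3-/- CD-HFD, -0.53 to 1.20, -1.09 to 0.61 and -0.47 to 1.59 for Jchain, Ighm and Igkc on Ripk3-/- CD-LFD, and -0.69 to 0.084 for Igha on Mlkl-/- CD-LFD. The IgA share difference of WT CD-LFD ranged over -0.0573 to 3.89 points. Where none is given, the cause was not tested. Depth limits Cd79a, Cd79b, Ms4a1 and Mzb1. The planned comparison of the most counted kappa V gene and its alternatives were not run, since 3 of 44 libraries reached 100 such counts, each in another group.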

Other observations

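The balance of IgM heavy chain and kappa light chain was looked at after the values were seen. The ratio of Ighm to Igkc counts had a median of 3.95 in WT, 2.53 in Ripk3-/- and 5.02 in Mlkl-/- controls. With CD-LFD the medians were 1.12, 1.67 and 1.23, and with CD-HFD 1.24, 1.34 and 1.15. In WT controls the ratio ran from 1.18 to 8.35, with replicates 5 and 6, which stand apart, lowest at 1.18 and 1.43, and on WT CD-HFD from 0.833 to 1.53. The Mlkl-/- controls ran from 1.5 to 6.26. The genes differ in length, so the ratio can be read only between libraries, and no difference was tested.

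Kappa V genes, the variable segments that differ between B cell clones, had 5 to 346 counts per library over 86 genes, and 3 libraries had at least 100. In Ripk3-/- CD-HFD replicate 5 the most counted was Igkv3-2 with 59 of 160 counts (36.9%, exact Clopper-Pearson 95% interval 29.4 to 44.9%). In WT CD-LFD replicate 3 it was Igkv4-57-1 with 44 of 346 counts (12.7%, exact Clopper-Pearson 95% interval 9.39 to 16.7%), and in Ripk3-/- CD-LFD replicate 3 Igkv4-79 with 14 of 139 counts (10.1%, exact Clopper-Pearson 95% interval 5.62 to 16.3%). Near-identical V genes can share reads, so these assignments are uncertain.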
